A study of Mus musculus with 2 samples.

Results

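The clustered protocadherin genes were taken from the gene count table as every entry whose symbol starts with Pcdha, Pcdhb or Pcdhg, which gave 59 of the 22556 genes listed. They comprised 14 alpha genes, 22 beta genes, 22 gamma genes (12 of type A, 7 of type B and 3 of type C) and 1 long entry named Pcdha4-g that runs from the alpha to the gamma genes. The rule used gene names and no measured value, though it was set with earlier results of these data known. The libraries were made from polyadenylated RNA of mouse embryonic stem cells (mESCs) of the line iXist-ChrX-Dom, kept without induction, to rank genes by their expression before Xist, the RNA that silences an X chromosome, is switched on. The cells were female, from the cross Dom/129S x Cast, and on the Dom/129S allele a TetOn promoter stood in place of the Xist promoter. The samples were untreated (0 h) and all came from 1 engineered line. The cells were grown with serum and LIF on mouse fibroblasts, whose number was reduced by pre-plating before experiments. There was 1 group of 2 replicates and so no comparison between conditions. Nothing in the labels says whether the replicates were separate cultures, and the p-values given here set the difference between the 2 libraries against counting error alone, with no measure of the spread between samples.

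Clustered protocadherins are cell adhesion molecules of the cadherin superfamily. A neuron expresses a small, partly random set of them, and the proteins bind like proteins on other membranes, which lets branches of a neuron recognise and avoid each other. Each alpha or gamma gene has its own variable first exon, which is spliced to constant exons shared by all genes of its cluster, while beta genes carry their coding sequence in an exon of their own. The choice of promoter involves CTCF and cohesin, and in many cells the clusters are kept silent by DNA methylation, by H3K9 methylation and by SmcHD1, a chromatin protein that also acts on the inactive X chromosome.

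Replicate 1 held 23716499 counts and replicate 2 held 20275749, so that a gene with a count of 0 may still have had up to 3 counts, or 0.126 and 0.148 CPM (counts per 1000000). These floors, and the intervals given here, cover counting error only. Of 12 ES cell markers, 11 reached 10 TPM (transcripts per 1000000, here on exonic length and as the mean of the replicates), a level that 34.0% of all genes reached, with Tdgf1, Nanog and Zfp42 well expressed and Utf1 the exception, and the 2 libraries differed widely in some of them (Pou5f1 had 1129 and 142 counts). Although the labels give the cell type as mESC to NPC, 0 of 7 countable neural precursor markers reached that level. Of 12 neuron markers 4 did (Stmn2, Gap43, Elavl4 and Map2), as did 2 of 11 fibroblast markers (Fn1 and Sparc), while the other 9 fibroblast markers ranged from 0 counts (Lum) to 111 and 95 counts (Twist1), with 32 and 2 for Thy1, 9 and 4 for Col1a2 and 4 and 5 for Col1a1. Among 8 primitive endoderm markers Dab2 reached it, and Lama1 did so in replicate 1 (11.9 TPM) and not in replicate 2 (8.05 TPM). The part that cells of another kind play in the protocadherin counts was not tested.

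On mm10 the members lie on the plus strand of chromosome 18 between positions 36930284 and 37841872, a stretch of 0.912 Mb. Their annotated transcript spans, introns included, overlap heavily. The 14 alpha spans, from 43690 to 257374 bases long, all end at the shared constant exons, and so do the 22 gamma spans, from 22328 to 179927 bases long. The beta genes lie between them and do not overlap each other, with spans of 2320 to 5271 bases (median 3335, 74399 bases in all). The entry Pcdha4-g, from 36952740 to 37840200, is 887461 bases long and lies over every beta gene on the same strand, over all of the gamma spans apart from their last bases, and over most of the alpha spans.

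**Figure D1:**
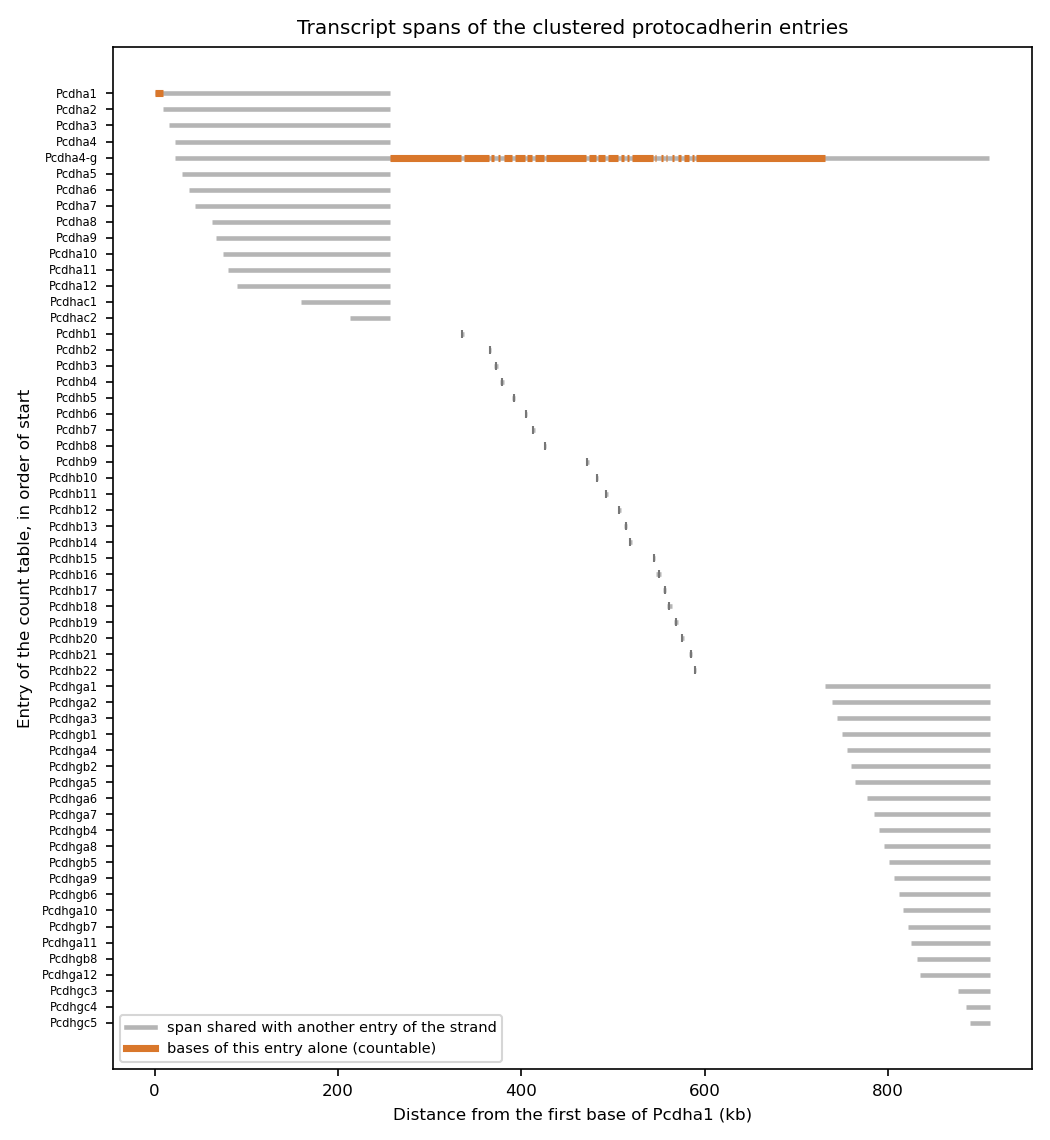
Transcript spans of the 59 entries by distance from the first base of Pcdha1 (kb), in order of start, with shared bases in grey and bases covered by no other entry of the strand in orange. A small upright tick marks the middle of each short beta span. Orange appears at the start of Pcdha1 and in the 23 stretches of Pcdha4-g, and on no beta or gamma gene.

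This layout bears on what the counts can show. Fragments had been counted over whole transcript spans with no option for multiple overlaps, so that a fragment lying wholly in the spans of 2 genes of a strand was given to neither. How pairs with 1 read in shared bases and the other in bases of 1 gene were counted was not tested. Countable bases are therefore the bases of a gene that no other gene of its strand covers. Of the 59 members, 57 (96.6%) had none. They were all 22 beta genes, all 22 gamma genes and 13 of the 14 alpha genes. Among the other 22497 genes of the table, 337 (1.5%) had none, while 21820 genes of the table (96.7%) were countable over their whole span.

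All 57 of these members had a count of 0 in both replicates. So did the other 337 genes without a countable base, with 0 of the 394 showing a count. Of the 20678 genes with at least 1000 countable bases, 17568 had a count in either replicate (85.0%). The 0 listed for a beta gene such as Pcdhb1, for a gamma gene such as Pcdhga1 or for the C-type isoforms Pcdhac1, Pcdhac2, Pcdhgc3, Pcdhgc4 and Pcdhgc5 is thus the value that fragments within its shared span give whether or not its RNA is present. No level, floor or difference between replicates can be drawn from it. The beta genes had a summed level of 0 TPM and 0 of 22 were detected, which is the same statement.

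**Figure D2:**
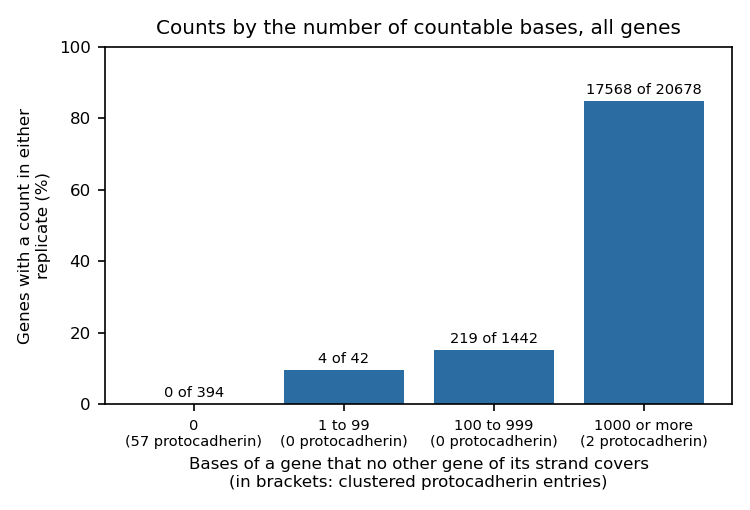
Percentage of genes with a count in either replicate (vertical axis, from 0) by the number of countable bases of the gene. Bars stand for all genes of a bin, with the numbers of genes above them and the number of clustered protocadherin entries in brackets below. The bin with 0 countable bases holds 57 of the 59 protocadherin entries and has 0 of 394 genes with a count.

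Pcdha1, the first alpha gene, was the only alpha, beta or gamma gene with countable bases. Its first 8920 bases (3.47% of its span) lie upstream of the other alpha spans and hold 1 of its 4 annotated exons, the variable exon, with 2389 exonic bases. It had 0 counts in replicate 1 and 1 count in replicate 2. This is below the floor in both libraries. Over both libraries together the countable bases of Pcdha1 gave 0.0227 CPM, with an exact Poisson 95% interval from 0.000576 to 0.127 CPM. Such a value is common: 4037 of the 20678 genes with at least 1000 countable bases (19.5%) had at most 1 count in total. Pcdha1 RNA was thus not detectable in these countable bases at this depth. The other exons of Pcdha1 have no base in them, so no level of the whole RNA can be drawn. It was not tested how fragments that reach from its variable exon into the shared part of the cluster were counted.

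The remaining member, Pcdha4-g, had 633 counts in replicate 1 and 507 in replicate 2, or 26.7 and 25.0 CPM (25.8 ± 1.19, SD, n = 2). Its 399884 countable bases are 45.1% of its span and lie in the gaps of the cluster. The first gap, of 77336 bases, runs from the end of the alpha genes to Pcdhb1. A further 21 gaps between beta genes, of 1173 to 43243 bases, sum to 182024 bases, and the last, of 140524 bases, runs from Pcdhb22 to Pcdhga1. The table gives 1 sum over all gaps, so the counts cannot be placed in any of them.

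The density of these counts over the gaps was somewhat below the median of genes with at least 1000 countable bases. Pcdha4-g had 1.58 and 1.27 counts per countable kb. Among genes with at least 1000 countable bases it stood at percentile 43.9 in counts per countable base, against percentile 76.0 in mean CPM among all genes. Its level was 0.493 ± 0.0175 TPM (SD, n = 2) on the deposited span length and 1.09 ± 0.0391 TPM on countable bases.

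The name Pcdha4-g denotes a read-through transcript, and the annotation says where its exons are. In GENCODE M21 the gene model with the same end and a start 1 base away, Gm42416, has 4 exons with 2856 bases in all, of which 1 lies inside the span of Pcdha4 and 3 lie inside gamma spans. None of these exonic bases (0 of 2856) falls within the countable bases. Whether pairs with 1 read in the Pcdha4 exon and the other in a gamma exon were counted for the entry was not tested.

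Exons of other genes do fall in the gaps. In all, 26944 of the countable bases (6.74%) lie in a GENCODE M21 exon of the same strand. Ends of 17 beta genes that reach beyond the deposited spans make up 17890 of these bases, the largest being those of Pcdhb14 (5256 bases), Pcdhb22 (3541 bases) and Pcdhb19 (2423 bases). The long noncoding RNA 3222401L13Rik, which is not an entry of the table, adds 6292 bases, and the noncoding RNA 4930517L18Rik adds 482. The pseudogenes Gm18529 and Gm20162 add 1257 and 871 bases. How the 633 and 507 counts divide between these exons, the unannotated rest of the gaps and pairs that reach out of them was not tested.

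On the opposite strand, the last gap also holds Slc25a2, which encodes a mitochondrial ornithine carrier, and Taf7, which encodes a subunit of the general transcription factor TFIID. Slc25a2 had 6 and 7 counts. Taf7 had 7564 and 5479 counts, so that Pcdha4-g stood at 8.37% and 9.25% of Taf7. Across the 10 pairs in the table, this pair included, in which an inner gene of the opposite strand had at least 2000 counts in each replicate, the outer gene stood at 1.10% to 46.9% of the inner gene in replicate 1 (median 6.75%) and at 1.47% to 46.0% in replicate 2 (median 6.65%). The part of Taf7 fragments read on the wrong strand in the Pcdha4-g counts was not tested.

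Between the replicates, the exact binomial test with Benjamini-Hochberg adjustment called 8842 of the 14536 genes tested (60.8%), so a call by itself says little about a gene in these libraries. Of the 59 members 1 could be tested, Pcdha4-g, and it was not called: its log2 ratio of replicate 2 to replicate 1 was -0.09 (adjusted p = 0.360, exact binomial test). The sign of this ratio depends on the scaling. It was 0.16 with TMM factors and 0.22 with DESeq2 size factors, and with the latter it was called (adjusted p = 0.0230, exact binomial test). The median of all tested genes moved from -0.31 with library totals to -0.05 and 0.003. A scaling shifts all genes by the same amount, so relative to that median the ratio of Pcdha4-g was necessarily 0.21 under each. With TMM factors 57.7% of the tested genes were called and with DESeq2 size factors 57.8%. Of the genes called, 24.9% were higher in replicate 2 with library totals, 49.9% with TMM factors and 54.8% with DESeq2 size factors.

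The nonclustered protocadherins, related genes that stand alone in the genome and have no shared exons, were all countable (12 of 12). Pcdh9 had 1120 and 1123 counts (47.2 and 55.4 CPM), Pcdh19 had 154 and 204, Pcdh7 had 79 and 22, and Pcdh11x had 45 and 70. These 4 genes had the most counts of the list. Pcdh15 had 20 and 22 counts and Pcdh17 had 8 and 11. The other 6 had at most 7 counts in either replicate, and Pcdh12 had 0 in both.

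Per length, Pcdh9 was the highest of these 12 genes at 25.6 ± 3.98 TPM on exonic length (SD, n = 2), ahead of Pcdh19, a gene whose human counterpart is mutated in an epilepsy, at 2.63 ± 0.908 TPM and Pcdh11x at 0.730 ± 0.329 TPM. Pcdh12 was the lowest. The median over the list was 0.106 TPM on exonic length, against 1.83 TPM over all genes with an exonic length. On span length the order of the first genes changed, with Pcdh19 at 0.978 and 1.70 TPM and Pcdh9 at 0.861 and 1.13 TPM. Pcdha4-g stood at 0.481 and 0.506 TPM on its whole span and at 1.06 and 1.12 TPM on countable bases. Of the 6 genes that could be tested between replicates, 3 were higher in replicate 2 (Pcdh9, Pcdh19 and Pcdh11x) and 1 was lower (Pcdh7), under each of the 3 scalings. This share of calls, 4 of 6, is near that of all tested genes (60.8%, 57.7% and 57.8% under the 3 scalings).

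**Figure D3:**
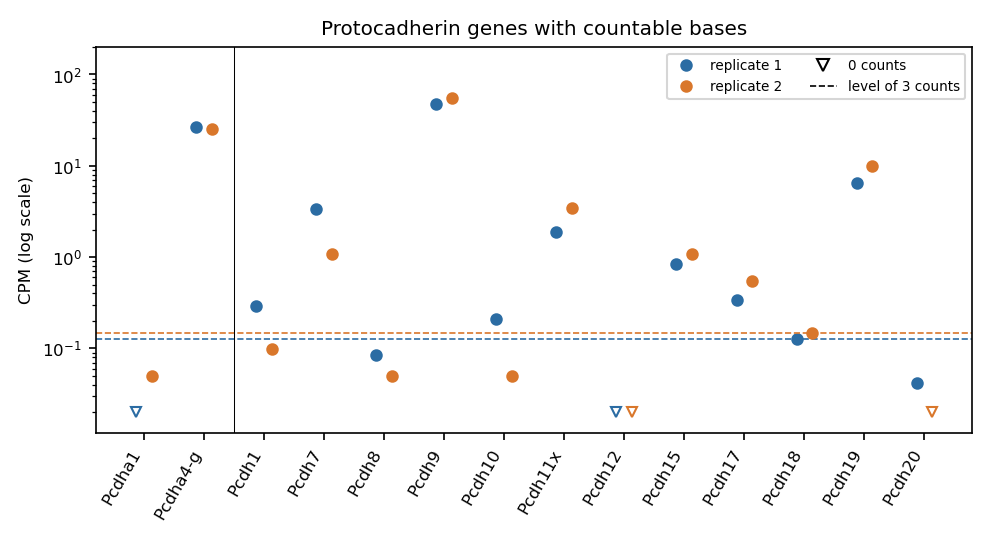
CPM (log axis) in replicate 1 (blue) and replicate 2 (orange) of the 2 clustered entries with countable bases, left of the line, and of the 12 nonclustered protocadherins. Open triangles mark 0 counts and dashed lines the level of 3 counts in each library. Pcdha4-g lies at 26.7 and 25.0 CPM, below Pcdh9 at 47.2 and 55.4, and Pcdha1 lies below the lines.

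Genes next to the cluster did have counts. Before it, Zmat2, which encodes a zinc finger protein, had 2279 and 1007 counts, while Vaultrc5, a vault RNA, and Gm6756 had 0 in both replicates. After it, Diap1, which encodes a formin that assembles actin, had 2939 and 2536 counts, Hdac3, which encodes a histone deacetylase, had 630 and 185, and Rell2 had 4 and 1. Zmat2 and Hdac3 were lower in replicate 2 under each of the 3 scalings, with log2 ratios of -0.95 and -1.54 on library totals. Diap1 was not called with library totals, at a log2 ratio of 0.01 (adjusted p = 0.796, exact binomial test), and was called higher with the other scalings.

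Genes known to act on the clusters were expressed. All 9 of the CTCF and cohesin genes found (Wapl was not found under that symbol) reached 10 TPM on exonic length, with a median of 204 TPM. Stag2 (420 ± 70.4 TPM), Rad21 (356 ± 66.5) and Smc3 (339.9 ± 26.8), all parts of cohesin, were the highest and Pds5b, a regulator of cohesin, the lowest at 74.1 ± 7.83 TPM (SD, n = 2). Ctcf itself had 6827 and 6054 counts, or 252 ± 17.4 TPM.

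Of 10 genes for repressors of the clusters, 8 reached 10 TPM on exonic length. Hells, which encodes a chromatin remodeller needed for DNA methylation, was the highest at 906 ± 234 TPM. Smchd1 followed with 10254 and 9921 counts (212 ± 27.7 TPM), and Setdb1, which encodes an H3K9 methyltransferase, stood at 71.8 ± 13.3 TPM. The lowest was Wiz, which encodes a partner of the H3K9 methyltransferases G9a and GLP, at 3.25 and 2.74 TPM in the 2 replicates. Trim28, the corepressor that recruits SETDB1, had 1706 and 451 counts, so its level differed widely between the libraries.

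Genes for proteins that bind or process clustered protocadherins were also present, 9 of 11 at 10 TPM or more. Nckap1 (364 ± 21.3 TPM) and Abi1 (276 ± 61.7 TPM) encode parts of the WAVE complex, an activator of actin branching, and Ptk2 (110 ± 6.11 TPM) encodes focal adhesion kinase. Ret, a receptor kinase, was the lowest at 0.584 ± 0.0331 TPM (SD, n = 2). The numbers called between replicates depended on the scaling in these lists: 6 higher and 1 lower of 9 CTCF and cohesin genes with library totals against 8 and 1 with DESeq2 size factors, 2 and 5 of 10 repressor genes against 5 and 4, and 4 and 3 of 11 partner genes against 7 and 2. Over all tested genes 60.8% were called with library totals and 57.8% with DESeq2 size factors.

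**Figure D4:**
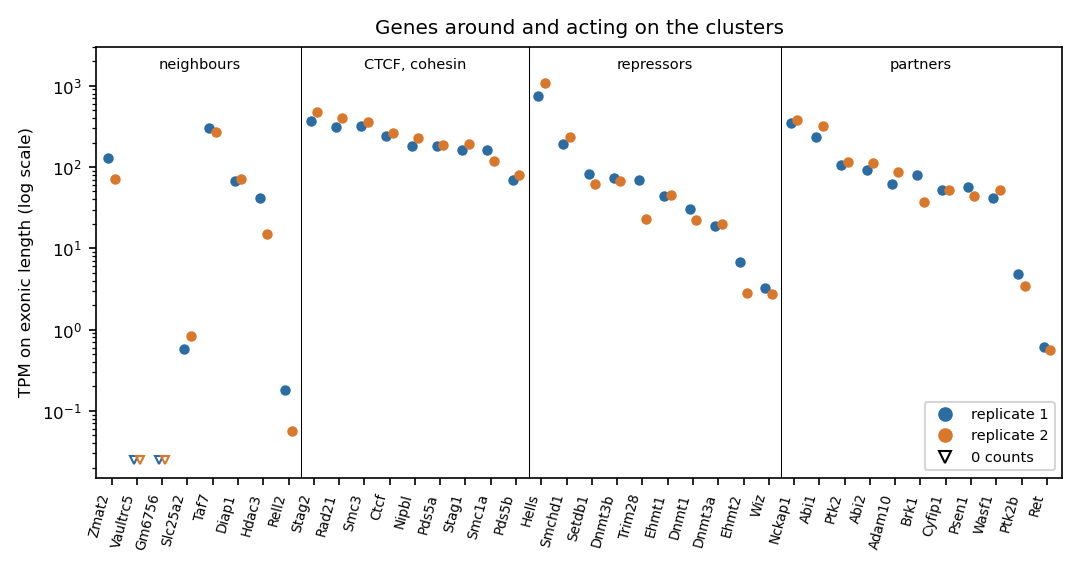
TPM on exonic length (log axis) in replicate 1 (blue) and replicate 2 (orange) of the 8 neighbours of the cluster, the 9 CTCF and cohesin genes, the 10 repressor genes and the 11 partner genes. Open triangles mark 0 counts. The CTCF and cohesin genes all lie above 10 TPM, and Taf7, inside the cluster, lies at 304 and 273 TPM.

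How many members are countable depends on the entries and features used. Without the entry Pcdha4-g, 25 members would have countable bases: all 22 beta genes over their whole spans, Pcdha1 (8920 bases), Pcdhga1 (7160 bases) and Pcdha2 (3 bases). On exons of GENCODE M21, in which 57 members were found by symbol (not Pcdha10 or Pcdha4-g), all 57 have exonic bases that no other gene of the strand covers. For 56 of them these are at least 1000 bases, the exception being Pcdha4 with 494. The median was 2478 bases for alpha genes, 3714 for beta genes, each of which has 1 exon, and 2629.5 for gamma genes.

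Beta genes also share some sequence, nearly all of it with each other. Of the 81-base words of a beta transcript, 81 bases being the length of a read, a median of 0.632% and at most 3.34% (Pcdhb6) also occur in the transcript of a gene at another place, and for 4 beta genes (Pcdhb1, Pcdhb2, Pcdhb13 and Pcdhb18) none do. For words of 50 bases the median was 3.48% and the highest value 11.99% (Pcdhb12), 9 genes were over 5%, and only Pcdhb1 shared none. At 81 bases every shared word also occurs in another beta gene, except in Pcdhb14 (26 words shared, 18 of them with a beta gene). At 50 bases Pcdhb5, Pcdhb14 and Pcdhb22 were the exceptions.

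Few genes of the olfactory and vomeronasal receptor families lacked countable bases. Of 1119 olfactory receptor genes (Olfr), 22 had no countable base (1.97%), as had 2 of 185 Vmn1r and 2 of 124 Vmn2r genes, which encode vomeronasal receptors. Of the countable members of these families, 10 of 1097 (0.912%), 1 of 183 (0.546%) and 14 of 122 (11.5%) had at least 10 counts in total, against 14536 of 22162 (65.6%) over all countable genes. Most genes also had no countable base in 2 families that were chosen after their values were seen. These were Ugt1a, whose genes share constant exons (7 of 8), and Klra (16 of 21), whose layout was not examined.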

How the data were processed

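Both samples were polyadenylated RNA libraries made with a stranded kit, read as 81-base pairs. The deposited counts are whole fragments per gene, which the authors obtained on mm10 by running featureCounts 1.5.2, reverse-stranded, on transcript features grouped by gene, per the file headers. The submitters' processing notes also name STAR 2.4.2a and Bowtie2 2.3.2. The alignment of the mRNA libraries is not given in the sources used here. Column names lack a letter of the sample descriptions and were matched by the rest of the name.

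Countable bases, CPM and TPM (on the deposited span length, or on the union of exons of GENCODE M21 basic, matched by symbol for 98.5% of genes) were computed from the deposited counts and coordinates. Replicates were compared by a two-sided exact binomial test against the ratio of library totals, adjusted by the Benjamini-Hochberg method (threshold 0.05) over the 14536 genes with at least 10 counts in total, and log2 ratios were taken after adding 0.5 counts. The test compares 2 libraries. It was tried only on simulated counts with known changes in some genes, counting error and no other spread between libraries. Scaling was also done with edgeR 4.0.16 (TMM) and DESeq2 1.42.0 (size factors) in R 4.3.3, and other steps in Python 3.11.15 with scipy 1.17.1. Words were searched on both strands, leaving out genes that overlap the beta gene in the genome.

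The members, the gene lists and the tests were chosen with earlier results of these data known. Genes were named by rule: every alpha or gamma gene with a count, the non-members inside the cluster and the 3 nearest on either side, and the 3 highest and the lowest gene of a list; marker genes, Ctcf and Trim28 were named after their values were seen. Beta genes were to be named by level, but none had a count. Alternatives for the entry Pcdha4-g were added after seeing the data.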

Additional observations from a re-analysis of the deposited data

How the results depend on the processing

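All 14 alternatives run on the detection or level of beta genes gave 0, because these genes had no countable base. They covered the number detected (of 22) under other thresholds and without replicate 1 or 2. The summed and the median level were taken on exonic length, as CPM and without replicate 1 or 2, and the highest level on exonic length. Values on exonic length follow from the counts of 0, which give 0 on any length, and were not computed separately. Leaving out a replicate gave a range of 0 to 0. The planned tests of beta genes between replicates, their median ratio, the correction for GC content and counts per kb of own bases gave no value, since no beta gene had a count. Counting overlaps on either strand left 2 members with countable bases. That number was 25 without the entry Pcdha4-g and 57 on exons of GENCODE M21. The median share of beta words found in the transcript of another gene was 0.632% at 81 bases and 3.48% at 50 bases. The level of Pcdha4-g was 25.0 to 26.7 CPM when a replicate was left out, 1.09 TPM on countable bases and 0.493 TPM on span length. Its log2 ratio between replicates reversed from -0.09 with library totals to 0.16 with TMM factors and 0.22 with DESeq2 size factors, because the scaling moved the median of all genes. No paired analysis was possible because there is only 1 group. At this depth the interval of Pcdha1, for its countable bases alone, reaches up to 0.127 CPM.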
